A study of Mus musculus with 18 samples.

Results

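The circadian clock genes described here are Arntl, Clock, Per1, Per2, Per3, Cry1, Cry2, Nr1d1, Nr1d2 and Dbp, 10 of 33440 genes in the tables. They were listed by name, as the core of the mammalian clock loop. All 10 were measured in every one of 18 libraries of mouse adipocyte RNA and all 10 passed the filter on low counts in both experiments. The lowest member value in any library was 181 estimated reads, for Dbp. Library totals ran from 21541334 to 40490283 reads.

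The clock of most cells is a feedback loop of transcription. ARNTL (also called BMAL1) and CLOCK bind E-box sequences as a pair and switch on the Per and Cry genes, whose proteins return to the nucleus and repress the pair. The same pair drives Nr1d1 and Nr1d2, which encode the REV-ERB repressors of Arntl, and Dbp, which encodes a PAR bZIP activator that acts through D-box sequences. In tissues of mice kept in a light cycle, fat included, Dbp and Nr1d1 RNA peaks at about the time when Arntl RNA is low, so the levels of these genes in a sample depend on the time of day at which it was taken.

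The first experiment used TRAP, in which ribosomes carrying a GFP tag made in adipocytes are pulled down with the RNA they are reading. The tissue was epididymal white fat (eWAT) of C57BL/6 mice fed a high-fat diet (HFD) for 8 weeks at thermoneutrality, a housing temperature that needs no extra heat production. WT libraries (6) came from Ad-NuTRAP mice and FI3KO libraries (6) from FI3KO-Ad-NuTRAP mice, in which the study's methods name floxed Irf3 and Adipoq-Cre, so that Irf3 is removed where the adiponectin promoter is active. Both groups carried the ribosome tag. In the second experiment, stromal vascular fraction (SVF) cells of inguinal fat of IRF3-2D mice were differentiated into adipocytes in culture. The 3 WT libraries came from cultures given an AAV with GFP and the 3 FI3OE libraries from cultures given an AAV with Cre. All 6 cultures carried the allele of constitutively active Irf3, Cre switches it on, and FI3OE therefore differed from WT in Cre as well as in IRF3. The labels call the samples biological replicates without saying which animal or culture each came from, so that p-values measure the spread between these samples. The time of day at which tissue or cells were taken is not given in the sources used here.

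The targeted gene was examined first. In TRAP libraries Irf3 had between 12.5 and 20.0 CPM (reads scaled to the library size, with TMM factors) in FI3KO and between 16.4 and 22.8 CPM in WT, a log2 fold change (log2FC) of -0.35 (standard error, SE, 0.11). The groups overlapped in total reads, and with an offset for transcript length the direction turned, to a log2FC of 0.71. The transcripts to which the reads were assigned told the groups apart. The Irf3 transcript of 1429 bases held between 27.5% and 49.1% of the Irf3 reads in WT libraries and was listed at 0 in each of the 6 FI3KO libraries, while one of 369 bases held between 19.1% and 36.8% in FI3KO and at most 1.17% in WT. In SVF-derived adipocytes Irf3 had 95.04 ± 5.72 CPM in FI3OE against 57.2 ± 0.6 CPM in WT (mean ± SD of 3 libraries). The summed CPM of 10 adipocyte marker genes was between 23602 and 30964 in TRAP libraries and between 6140 and 6795 in SVF-derived adipocytes. Markers of other cell types were far from 0 in the cultures, where 10 macrophage markers summed to between 1907 and 2141 CPM and 5 preadipocyte or fibroblast markers to between 7485 and 8460 CPM.

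The TRAP libraries did not vary in a simple way within their groups. In FI3KO every pair that joined replicates 1 or 2 to replicates 3 to 6 differed more (at least 126 times the variance that sampling alone gives) than any pair within these sets (at most 95.6 times). In WT the sets were less clear, since replicates 3 and 5 differed by 144 times and pairs across the sets by 85.0 to 146 times. The 4 WT libraries 3 to 6 lay outside the range of all other 8 TRAP libraries for 25.1% of 13624 genes. WT replicates 1 and 2 were the closest pair, at 2.58 times the variance of sampling, and were kept as separate samples. WT replicates 4 and 6 (9.97 times), FI3KO replicates 5 and 6 (18.5 times) and FI3KO replicates 3 and 4 (19.3 times) followed. The sources used here do not say whether close libraries share a mouse or a preparation, and the p-values below, within the sets and for the interaction as well, count them as separate samples. The labels name no batch for this split. The TRAP difference of the members is therefore given over all 12 libraries and within each set of replicates. Calls of other genes named from lists are those over all 12 libraries.

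Short stretches of promoter are shown for 5 of the 6 members in which a search for the binding sequences of the loop found a match. Sequences are from RefSeq (GRCm38.p6), in windows of 300 bases, 250 before and 50 after an annotated start. Of the 10 members, 9 were in the table (13 windows), all but Per2. Capitals mark the match, and each strand is the one of the gene.
Per3 (chr4:151044781-151044880, minus strand, 2 D-box matches): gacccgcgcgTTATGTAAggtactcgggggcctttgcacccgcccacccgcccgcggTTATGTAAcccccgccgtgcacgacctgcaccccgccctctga
Cry1 (chr10:85185065-85185164, minus strand, an E-box variant and an E-box): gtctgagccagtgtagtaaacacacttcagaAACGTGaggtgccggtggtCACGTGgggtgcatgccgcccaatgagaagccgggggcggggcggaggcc
Per1 (chr11:69098733-69098832, plus strand, an E-box): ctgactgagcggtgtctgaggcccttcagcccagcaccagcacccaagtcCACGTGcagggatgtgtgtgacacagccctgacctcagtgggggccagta
Nr1d1 (chr11:98775388-98775487, minus strand, an E-box variant): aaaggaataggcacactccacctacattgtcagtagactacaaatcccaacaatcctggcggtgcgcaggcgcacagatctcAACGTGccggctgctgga
Arntl (chr7:113207528-113207557, plus strand, a site of the REV-ERB type just after the start): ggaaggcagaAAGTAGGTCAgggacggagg

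The letters searched, on both strands, were CACGTG for the E-box, CACGTT for its variant (AACGTG on the other strand), TTATGTAA for the D-box and, for the site bound by REV-ERB proteins, AA, any base and TAGGTCA. They were found in 7.15%, 4.68%, 0.938% and 0.219% of all 32851 windows. Cry2, not shown, also held the E-box variant. Clock, Nr1d2 and Dbp held none of these sequences in their windows, and sites outside the windows were not searched. Of 3 further sequences none was in the 13 member windows. These were the core of the element that IRF proteins bind (GAAA, 2 bases of any kind, GAAA; 3.44% of all windows), the cAMP response element (TGAC followed by GTCA; 1.79%) and the glucocorticoid response element (AGAACA, 3 bases of any kind, TGTTCT; 0.00913%). At shares this low few or no matches would occur in 13 windows in any case, so their absence says little. A match is a description of these letters, not of a bound site.

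Over all 12 TRAP libraries, FI3KO adipocytes had more RNA of the output gene Dbp and of the REV-ERB repressors Nr1d1 and Nr1d2 on ribosomes, and less of Arntl and Clock. Dbp was 2.78-fold higher, Nr1d1 1.90-fold and Nr1d2 1.55-fold higher, while Arntl stood at 0.703 and Clock at 0.832 times the WT level. The PER and CRY genes did not pass the test in this fit. Counting at an adjusted p of at most 0.05 in edgeR's quasi-likelihood test, 5 of 10 members were called, beside 37.4% of all genes tested. Members called higher numbered 3 (background 19.1%) and members called lower 2 (background 18.3%). The median log2 fold change of the members was -0.01 and that of all genes 0.02. The share of members called was thus near that of all genes. At an unadjusted p under 0.05 there were 6 members, with Cry1 added (background 47.1%). Both cutoffs of the study, which also ask for a log2FC beyond 1 in size, were met by Dbp alone (background 6.61%). In bulk RNA of this kind, fewer cells and less RNA per cell cannot be told apart.

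**Figure D1:**
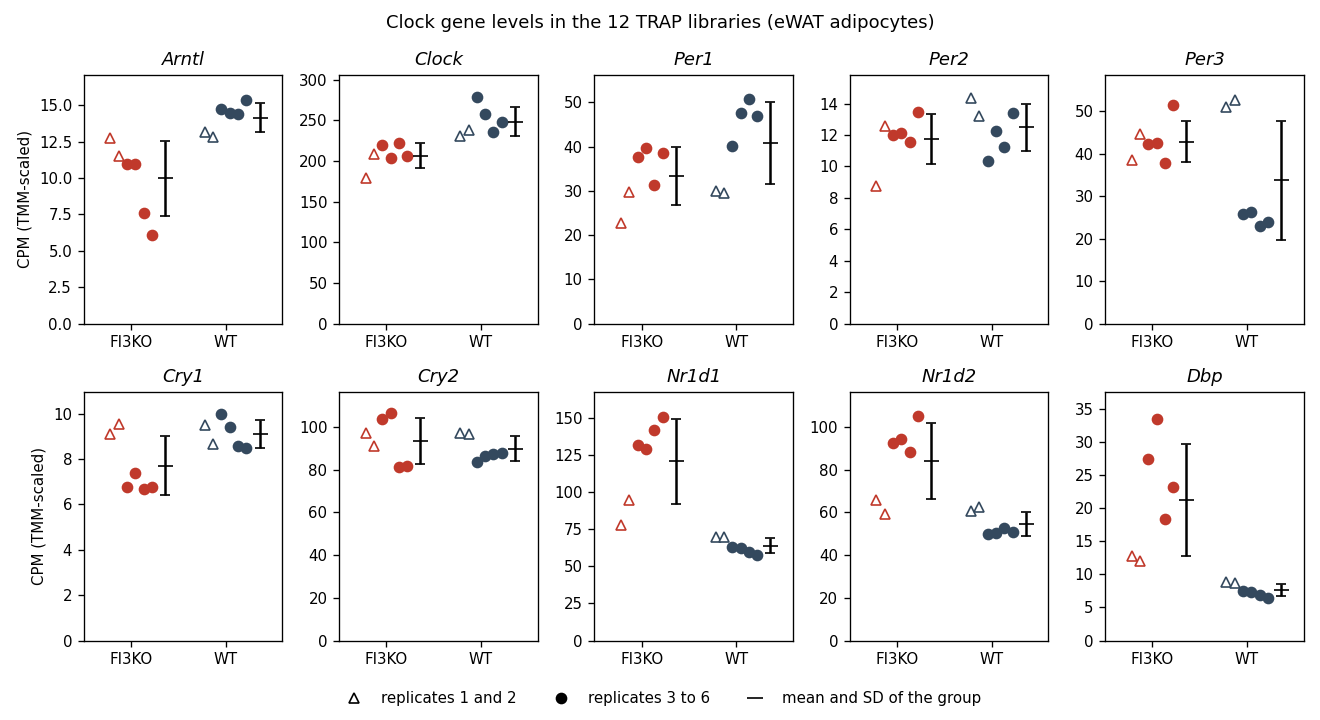
Level of each clock gene (CPM, TMM-scaled, y axis from 0) in the 6 FI3KO and 6 WT TRAP libraries, with open triangles for replicates 1 and 2, filled circles for replicates 3 to 6, and a bar for the mean and SD of each group. The libraries of the groups do not overlap for Arntl, Clock, Nr1d1 and Dbp, and for Per3 the WT libraries fall into 2 clusters, 50.9 and 52.6 CPM in replicates 1 and 2 and at most 26.3 CPM in replicates 3 to 6.

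Of the activating arm, Arntl (chr7:113207465-113314126) had a lowest, median and highest level of 6.11, 10.9 and 12.8 CPM in FI3KO and of 12.8, 14.4 and 15.4 CPM in WT. The highest FI3KO library lay just under the lowest WT library, so that the groups did not overlap. Its log2FC was -0.51 (SE 0.15, adjusted p = 0.0193). FI3KO replicates 5 and 6, at 7.57 and 6.11 CPM, were the lowest of the group, and the other 4 were between 10.9 and 12.8 CPM. When 3 pairs of libraries were summed (WT 1 and 2, FI3KO 3 and 4, FI3KO 5 and 6, an alternative chosen after seeing the data), Arntl had an adjusted p of 0.0504, and over the 25 alternatives its adjusted p ran from 0.0042 to 0.627.

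Clock (chr5:76209868-76304792), the partner of ARNTL, varied little. Its lowest, median and highest levels were 179, 208 and 223 CPM in FI3KO and 231, 243 and 278 CPM in WT. All 6 FI3KO libraries lay under all 6 WT libraries. The log2FC came to -0.27 (SE 0.06, adjusted p = 0.0067).

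Dbp (chr7:45705088-45710203) showed the largest difference among the members. Its lowest, median and highest levels were 12.0, 20.7 and 33.5 CPM in FI3KO and 6.38, 7.44 and 8.79 CPM in WT. Every FI3KO library was above every WT library, and the FI3KO libraries spread far more than the WT libraries. This was a log2FC of 1.48 (SE 0.23, adjusted p = 0.000519), and over the 25 alternatives it stayed above 0, between 0.51 and 1.86. Dbp lies 702 kb from Irf3 on chromosome 7, the chromosome that also carries Arntl, 68205 kb from Irf3. Exons of Sphk2, on the other strand, share 539 bases with those of Dbp, and the library kit does not mark strand. The level of Sphk2 differed little, with a log2FC of 0.11 (SE 0.06, adjusted p = 0.172).

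Nr1d1 (chr11:98767932-98775333), whose protein REV-ERBα represses Arntl, had a lowest, median and highest level of 77.6, 130.0 and 151 CPM in FI3KO and of 57.8, 62.7 and 69.9 CPM in WT. The groups did not overlap. Its log2FC was 0.92 (SE 0.14, adjusted p = 0.00047). Exons of the thyroid hormone receptor gene Thra share 263 bases with Nr1d1 on the other strand, which is 8.55% of the exonic bases of Nr1d1. Thra was itself higher in FI3KO, with a log2FC of 0.70 (SE 0.16, adjusted p = 0.00435). Without strand, reads from the shared bases cannot be told apart.

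Nr1d2 (chr14:18204054-18239127), which encodes REV-ERBβ, had a lowest, median and highest level of 59.4, 90.4 and 105 CPM in FI3KO and of 49.8, 51.7 and 62.3 CPM in WT. It overlapped by 1 library, since FI3KO replicate 2 lay under WT replicates 1 and 2 and the other 5 FI3KO libraries lay above all WT libraries. The log2FC came to 0.63 (SE 0.13, adjusted p = 0.0027).

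Groups that did not overlap were seen for 4 members (Arntl, Clock, Nr1d1 and Dbp), beside 16.0% of all genes. The ratio of Nr1d1 to Arntl, both in TPM and so per length, put the opposed genes into 1 value for each library. In FI3KO replicates 1 to 6 it was 8.21, 11.4, 15.9, 16.0, 25.0 and 34.5. In WT replicates 1 to 6 it was 7.00, 7.44, 5.64, 5.75, 5.62 and 5.23. FI3KO replicate 1 stood just above WT replicates 1 and 2, and FI3KO replicates 5 and 6 stood farthest from WT.

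**Figure D2:**
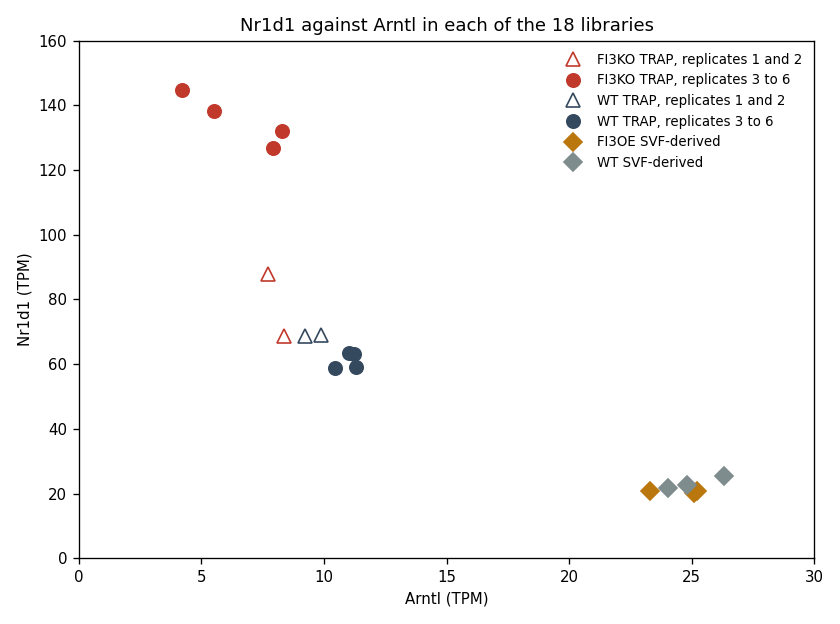
Level of Nr1d1 (y axis, TPM) against that of Arntl (x axis, TPM) in each of the 18 libraries, with open triangles for TRAP replicates 1 and 2, filled circles for TRAP replicates 3 to 6 and diamonds for SVF-derived adipocytes. FI3KO replicates 3 to 6 lie between 127 and 145 TPM of Nr1d1, the WT TRAP libraries and FI3KO replicates 1 and 2 between 58.7 and 87.8 TPM, and the cultures between 20.2 and 25.4 TPM, with the highest Arntl.

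The repressor arm, PER and CRY, was not called over all 12 libraries with genotype alone in the fit. With the replicate set as a further term, 7 members were called (39.9% of all genes), with Per1 (log2FC -0.28, adjusted p = 0.0205) and Cry1 (log2FC -0.25, adjusted p = 0.0437) added. Per1 (chr11:69095217-69109960) had a lowest, median and highest level of 22.9, 34.6 and 39.8 CPM in FI3KO and of 29.6, 43.5 and 50.7 CPM in WT, a log2FC of -0.29 (95% interval -0.61 to 0.03, adjusted p = 0.18). Per2 (chr1:91415982-91459324) had 8.73, 12.1 and 13.5 CPM in FI3KO and 10.4, 12.7 and 14.4 CPM in WT, a log2FC of -0.09 (95% interval -0.30 to 0.12, adjusted p = 0.555). Cry2 (chr2:92403646-92434043) had 81.2, 93.9 and 107 CPM in FI3KO and 83.4, 87.5 and 97.3 CPM in WT, a log2FC of 0.06 (95% interval -0.09 to 0.21, adjusted p = 0.586). These 3 genes overlapped broadly between genotypes.

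Cry1 (chr10:85131700-85185064) had a lowest, median and highest level of 6.70, 7.08 and 9.55 CPM in FI3KO and of 8.46, 9.04 and 9.98 CPM in WT. FI3KO replicates 3 to 6 lay under all WT libraries and FI3KO replicates 1 and 2 among them. This was a log2FC of -0.24 (95% interval -0.45 to -0.03), with an adjusted p of 0.0903. Per3 (chr4:151003652-151044665) had 37.9, 42.4 and 51.4 CPM in FI3KO and 23.0, 26.0 and 52.6 CPM in WT. Its log2FC was 0.34 (SE 0.21, adjusted p = 0.219), and the WT libraries were not of 1 kind.

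The genotypes were then compared within each set of replicates. In replicates 1 and 2 alone no member was called by edgeR (background 3.56%), with 4 libraries in the fit. At an unadjusted p under 0.05, 4 were (Clock, Per3, Nr1d1 and Dbp), beside 29.1% of all genes. Alone, replicates 3 to 6 gave 8 of 10 members called, all but Per2 and Cry2, beside 50.6% of all genes. Members whose groups did not overlap numbered 6 in the first set (background 63.7%) and 8 in the second (background 46.6%).

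Dbp stood at 12.8 and 12.0 CPM in FI3KO replicates 1 and 2 and at 8.79 and 8.63 CPM in WT replicates 1 and 2. Replicates 3 to 6 had 27.4, 33.5, 18.3 and 23.1 CPM in FI3KO and 7.54, 7.34, 6.93 and 6.38 CPM in WT. The log2FC came to 0.51 in the first set and 1.86 in the second. The direction was the same in both, and the FI3KO libraries of the second set were the highest of all.

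Nr1d1 was at 77.6 and 94.5 CPM in FI3KO replicates 1 and 2, and at 69.6 and 69.9 CPM in WT. Among replicates 3 to 6 it was at 131, 129, 142 and 151 CPM in FI3KO and at 62.9, 62.6, 59.5 and 57.8 CPM in WT. This was a log2FC of 0.31 in the first set and 1.19 in the second. All FI3KO libraries of the second set lay above those of the first, and all WT libraries of the second set lay below those of the first.

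Nr1d2 was at 65.8 and 59.4 CPM in FI3KO replicates 1 and 2 and at 60.9 and 62.3 CPM in WT, a log2FC of 0.03. In replicates 3 to 6 it was at 92.6, 94.4, 88.1 and 105 CPM in FI3KO and at 49.8, 50.6, 52.7 and 50.6 CPM in WT, a log2FC of 0.90 (adjusted p = 2.96e-06). The groups overlapped in the first set and lay well apart in the second.

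Per3 turned direction between the sets. It was at 38.6 and 44.6 CPM in FI3KO replicates 1 and 2, under the 50.9 and 52.6 CPM of WT, a log2FC of -0.31 (adjusted p = 0.11). The second set had 42.3, 42.4, 37.9 and 51.4 CPM in FI3KO and 25.8, 26.3, 23.0 and 23.8 CPM in WT, a log2FC of 0.82 (adjusted p = 5.83e-05). Here the FI3KO libraries were alike in both sets and the WT libraries were not.

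Arntl was at 12.8 and 11.5 CPM in FI3KO and 13.1 and 12.8 CPM in WT in replicates 1 and 2, a log2FC of -0.09. In replicates 3 to 6 it was at 10.95, 10.95, 7.57 and 6.11 CPM in FI3KO and at 14.7, 14.5, 14.4 and 15.4 CPM in WT, a log2FC of -0.73 (adjusted p = 0.0042). Clock was the member with the steadiest difference, with log2 fold changes of -0.27 and -0.26 in the sets.

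Per1 was the only member whose replicates 1 and 2 did not overlap replicates 3 to 6 over both genotypes, which held for 1.55% of all genes. It was at 22.9 and 29.8 CPM in FI3KO and 29.95 and 29.6 CPM in WT in replicates 1 and 2. The other libraries had 37.7, 39.8, 31.4 and 38.6 CPM in FI3KO and 40.2, 47.6, 50.7 and 46.9 CPM in WT. With genotype in the fit, replicates 1 and 2 were 0.56 lower on the log2 scale (SE 0.09). No p is given for this level, since the sets were noticed in these libraries. Besides its place in the loop, Per1 is a gene that responds quickly to glucocorticoids and other stimuli.

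**Figure D3:**
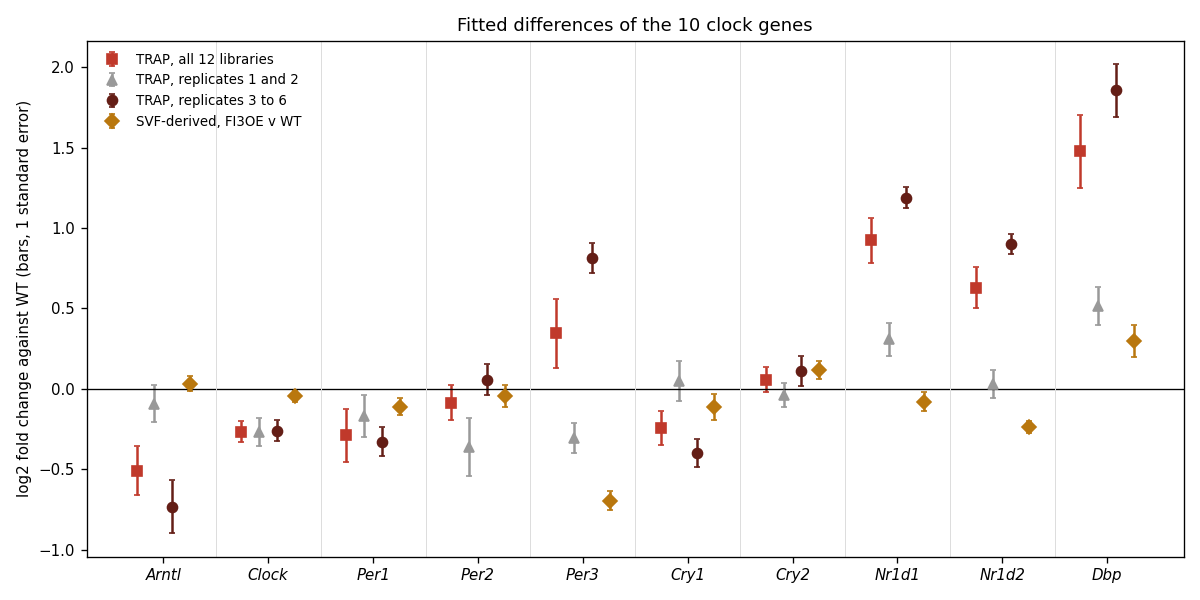
Log2 fold change against WT of each clock gene (y axis, bars for 1 standard error) over all 12 TRAP libraries, in TRAP replicates 1 and 2, in TRAP replicates 3 to 6, and in SVF-derived adipocytes with FI3OE. Dbp reaches 1.86 and Nr1d1 1.19 in replicates 3 to 6 against 0.51 and 0.31 in replicates 1 and 2, and Per3 lies at -0.31 in replicates 1 and 2, at 0.82 in replicates 3 to 6 and at -0.70 in FI3OE.

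The difference between the sets was fitted as an interaction of genotype and replicate set. The sets had been noticed in these libraries. The p-values and calls of this fit therefore describe these libraries only and cannot decide whether the genotype difference varies between sets. By edgeR's test 5 of 10 members were called, beside 26.5% of all genes, 4 with a positive interaction (background 12.8%) and 1 with a negative one (background 13.7%). The genotype difference in replicates 3 to 6 exceeded that in replicates 1 and 2 by 1.35 for Dbp (adjusted p = 0.00304), 1.13 for Per3 (adjusted p = 0.000318), 0.88 for Nr1d1 (adjusted p = 0.000349) and 0.88 for Nr1d2 (adjusted p = 0.000126), on the log2 scale. For Cry1 the interaction was -0.44 (adjusted p = 0.0383), and this call was lost in 9 of the 12 fits that left out a library, with adjusted p up to 0.161 (without WT replicate 2); it was kept without FI3KO replicate 4, WT replicate 5 or WT replicate 6. Arntl had an interaction of -0.63 (adjusted p = 0.0974).

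Within genotypes the sets differed as follows. In WT, 7 members did not overlap between replicates 1 and 2 and replicates 3 to 6 (background 48.9%), and in FI3KO 6 did not (background 35.6%). WT replicates 3 to 6 lay outside the other 8 TRAP libraries for 6 members, with higher Arntl and Per1 and lower Per3, Nr1d1, Nr1d2 and Dbp, beside 25.1% of all genes. FI3KO replicates 3 to 6 had the opposite order for Arntl, Nr1d1, Nr1d2 and Dbp. A difference in harvest time between these groups and a difference in the state of the clock cannot be told apart, since the time of harvest is not given. The same libraries also differed in other genes. Leptin (Lep) was between 2439 and 4039 CPM in FI3KO and between 6662 and 12708 CPM in WT. Of the 10 adipocyte markers Lep was the 1 called lower over all 12 libraries. The 5 called higher were Plin1, Fabp4, Pnpla2, Cebpa and Retn, and the median log2 fold change of the list was 0.28. Beside this list and the marker lists below, 19.1% of all genes were called higher and 18.3% lower. The 10 macrophage markers summed to between 39.1 and 49.0 CPM in FI3KO replicates 1 and 2, 14.1 and 18.5 CPM in FI3KO replicates 3 to 6, 47.77 and 47.80 CPM in WT replicates 1 and 2, and 75.8 and 105 CPM in WT replicates 3 to 6, with 8 of 9 tested lower in FI3KO. The 5 preadipocyte or fibroblast markers, mostly Col1a1, summed to between 435 and 544 CPM in FI3KO replicates 1 and 2 and between 513 and 518 CPM in WT replicates 1 and 2. In replicates 3 to 6 they summed to between 121 and 248 CPM in FI3KO and between 963 and 1481 CPM in WT, and 3 of 5 were called lower over all 12 libraries. Of 4 endothelial and 4 mesothelial markers tested none was called over all 12 libraries. The endothelial sum was nevertheless highest in FI3KO replicates 1 and 2, between 37.9 and 68.4 CPM, against 15.8 to 24.3 CPM in FI3KO replicates 3 to 6, 22.6 to 24.9 CPM in WT replicates 1 and 2 and 15.1 to 26.9 CPM in WT replicates 3 to 6. The epididymal sum was between 1.34 and 1.397 CPM in FI3KO replicates 1 and 2 and at most 0.0668 CPM in the other 10 libraries. The mesothelial sum was between 2.69 and 13.5 CPM in FI3KO and between 2.90 and 22.9 CPM in WT. None of these markers of other cells was at 0 in all libraries, apart from 4 of 6 epididymal ones. Their part in the clock gene differences was not tested.

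Glucocorticoid-responsive genes were followed because the adrenal hormone rhythm sets peripheral clocks. Of 11 tested, none was called higher in FI3KO (background 19.1%) and 3 were called lower, Fkbp5, Tsc22d3 and Mt1 (background 18.3%). The median log2 fold change of the 11 was -0.37. Fkbp5, a sensitive target of the glucocorticoid receptor, was between 24.8 and 34.2 CPM in all FI3KO libraries, 29.3 and 30.2 CPM in WT replicates 1 and 2, and between 80.8 and 86.6 CPM in WT replicates 3 to 6. The high level was thus found in the 4 WT libraries alone. Mt1, a metallothionein gene, was between 44.7 and 56.7 CPM in FI3KO and 27.5 and 31.3 CPM in WT in replicates 1 and 2, the opposite order to that of replicates 3 to 6 (35.8 to 41.3 CPM in FI3KO and 95.2 to 140 CPM in WT). Of 11 immediate-early genes, 1 was called higher (Ier3, background 19.1%) and 5 lower (Fos, Junb, Egr2, Nr4a1 and Btg2, background 18.3%), with a median of -1.04. In replicates 3 to 6 Fos was between 3.53 and 13.9 CPM in FI3KO and between 35.7 and 65.2 CPM in WT. In replicates 1 and 2 Fos was higher in FI3KO, at 8.90 and 13.0 CPM against 4.09 and 4.48 CPM in WT, and Egr2 (0.931 and 1.59 CPM against 0.425 and 0.568 CPM) and Nr4a1 (1.80 and 1.963 CPM against 1.17 and 1.73 CPM) had the same order. Junb stayed lower in FI3KO there (5.24 to 6.05 CPM against 6.40 to 6.65 CPM), and Btg2 overlapped (65.8 to 79.6 CPM against 67.3 to 70.7 CPM). The libraries with the highest Per1, Fkbp5 and Fos were the same 4 WT libraries, and the part of these genes' regulators in the clock gene values was not tested.

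Other genes of the clock pathway were read from lists written from general knowledge. Npas2, which can stand in for CLOCK, had 0.928 CPM (SD 0.225) in the 6 FI3KO libraries against 0.31 CPM (SD 0.12) in the 6 WT libraries, a log2FC of 1.54. It was called higher in FI3KO (adjusted p = 0.00156) and had a mean under 2 CPM in either group.

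Of 9 output and feedback genes 8 were tested in TRAP, 2 were called higher (background 19.1%) and 3 lower (background 18.3%), with a median of -0.20. Tef, like Dbp a PAR bZIP factor, was called higher over all 12 libraries, by 0.35 on the log2 scale (adjusted p = 0.0415). In replicates 3 to 6 it was between 153 and 177 CPM in FI3KO and between 105 and 107 CPM in WT. In replicates 1 and 2 the order was the opposite, 144 and 152 CPM in FI3KO and 159 and 165 CPM in WT. Hlf, the remaining PAR bZIP gene, was lower instead, with a log2FC of -0.33 (adjusted p = 0.0262). Nfil3, the repressor that binds the same D-boxes as DBP, had a log2FC of -1.52 (adjusted p = 0.0039), with at most 5.98 CPM in the 6 FI3KO and first 2 WT libraries and at least 12.3 CPM in WT replicates 3 to 6. Bhlhe41, an E-box repressor, had a log2FC of 0.90 and Noct, a rhythmic phosphatase, one of -0.37.

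Of 16 kinases, ligases and cofactors all were tested in TRAP, 6 were called higher (background 19.1%) and 1 lower (background 18.3%), with a median of 0.13. Among them, log2FC was 0.13 for Csnk1d and 0.35 for Csnk1e, the casein kinases that mark PER proteins. It was 0.52 for Tipin, 0.29 for Sirt1 and 0.24 for Hdac3, the deacetylase that REV-ERB proteins recruit. Timeless was lower, with a log2FC of -0.80 and means of 1.002 CPM in FI3KO and 1.75 CPM in WT. In replicates 1 and 2 its order was the opposite, 1.17 to 1.20 CPM in FI3KO and 0.836 to 0.902 CPM in WT, and the high values were those of WT replicates 3 to 6 (1.61 to 2.43 CPM). Over the 3 lists 14 of 28 tested genes were called (37.4% of all genes), and 7 with an offset for transcript length (30.7% of all genes).

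**Figure D4:**
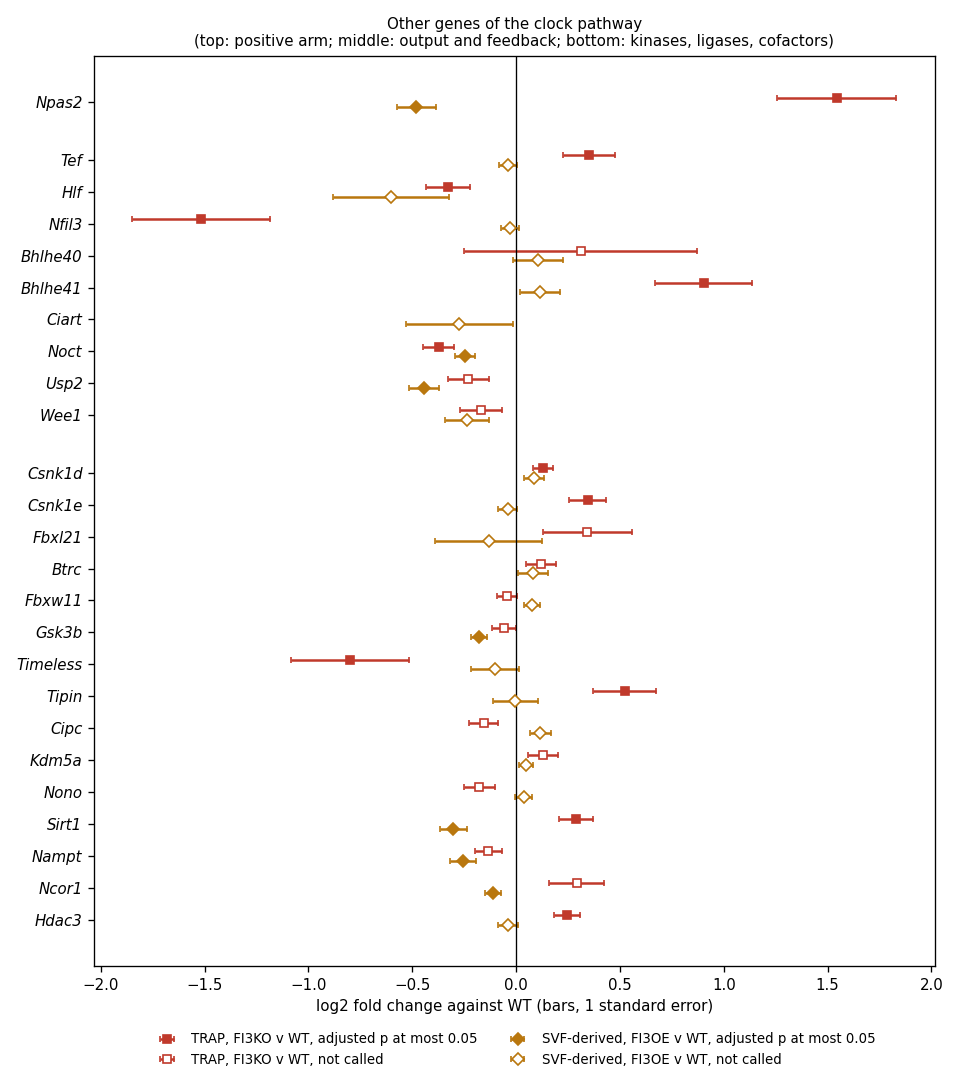
Log2 fold change against WT (x axis, bars for 1 standard error) of other genes of the clock pathway in TRAP (squares) and SVF-derived adipocytes (diamonds), filled where the adjusted p is at most 0.05. Npas2 lies at 1.54 in FI3KO and at -0.48 in FI3OE, and Nfil3 lies at -1.52 in FI3KO and at -0.03 in FI3OE.

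In SVF-derived adipocytes, active IRF3 came with less RNA of Per3 and Nr1d2 and slightly more of Dbp. Per3 was at 0.617 and Nr1d2 at 0.849 times the WT level, and Dbp was 1.23-fold higher. The other 7 members, Arntl, Clock and Nr1d1 included, were not called. By edgeR's test 3 of 10 members were called, beside 37.0% of all genes tested, 1 higher (background 20.2%) and 2 lower (background 16.8%). The median log2 fold change of the members was -0.06 and that of all genes -0.0047. No member met both cutoffs by edgeR or by DESeq2 (background 3.62%), and 4 had an unadjusted p under 0.05 in edgeR, with Cry2 added (background 45.7%). The share of members called was near that of all genes here too.

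Per3, a PER protein gene that the loop can lose without stopping, was at 31.9, 33.0 and 31.8 CPM in FI3OE and at 55.6, 53.8 and 47.3 CPM in WT. All FI3OE libraries lay under all WT libraries. The log2FC came to -0.70 (SE 0.06, adjusted p = 4.03e-06). It was -0.69 with an adjusted p of 0.131 in the fit of all 18 libraries, the highest over the alternatives, whose lowest was 1.28e-20.

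Nr1d2 was at 51.2, 50.6 and 51.9 CPM in FI3OE and at 61.3, 59.7 and 60.0 CPM in WT. The groups did not overlap. This was a log2FC of -0.24 (SE 0.04, adjusted p = 0.000517), and in the fit of all 18 libraries the size was alike (-0.23) but the call was lost (adjusted p = 0.52). Nr1d1 was at 22.6, 22.6 and 22.8 CPM in FI3OE and at 25.7, 22.7 and 23.5 CPM in WT, a log2FC of -0.08 (95% interval -0.20 to 0.03, adjusted p = 0.315).

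Dbp was at 12.6, 16.1 and 13.2 CPM in FI3OE and at 11.7, 11.4 and 11.03 CPM in WT. The groups did not overlap, and FI3OE replicate 2 was the highest. Its log2FC was 0.30 (SE 0.10, adjusted p = 0.0346). Without FI3OE replicate 2 it was 0.18 with an adjusted p of 0.126. Without WT replicate 1, 2 or 3 the size changed little (0.32, 0.30 and 0.27), with adjusted p of 0.0697, 0.0789 and 0.103. With the transcript length offset it was 0.26 (adjusted p = 0.185), and in the fit of all 18 libraries 0.30 (adjusted p = 0.678).

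Arntl was at 36.5, 35.4 and 37.4 CPM in FI3OE and at 36.3, 34.6 and 36.04 CPM in WT, a log2FC of 0.03 (95% interval -0.06 to 0.12). Clock was at 144, 141 and 148 CPM in FI3OE and at 150, 148 and 148 CPM in WT, a log2FC of -0.04 (95% interval -0.12 to 0.03). The 95% intervals of the log2 fold change were -0.21 to -0.01 for Per1, -0.18 to 0.09 for Per2, -0.27 to 0.04 for Cry1 and 0.01 to 0.22 for Cry2. By edgeR's test neither Per1 (unadjusted p = 0.0531, adjusted p = 0.115) nor Cry2 (adjusted p = 0.109) was called. The intervals are slightly narrower than that test would give. The groups overlapped for each of these 6 genes. Members whose groups did not overlap numbered 3, beside 49.5% of all genes.

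**Figure D5:**
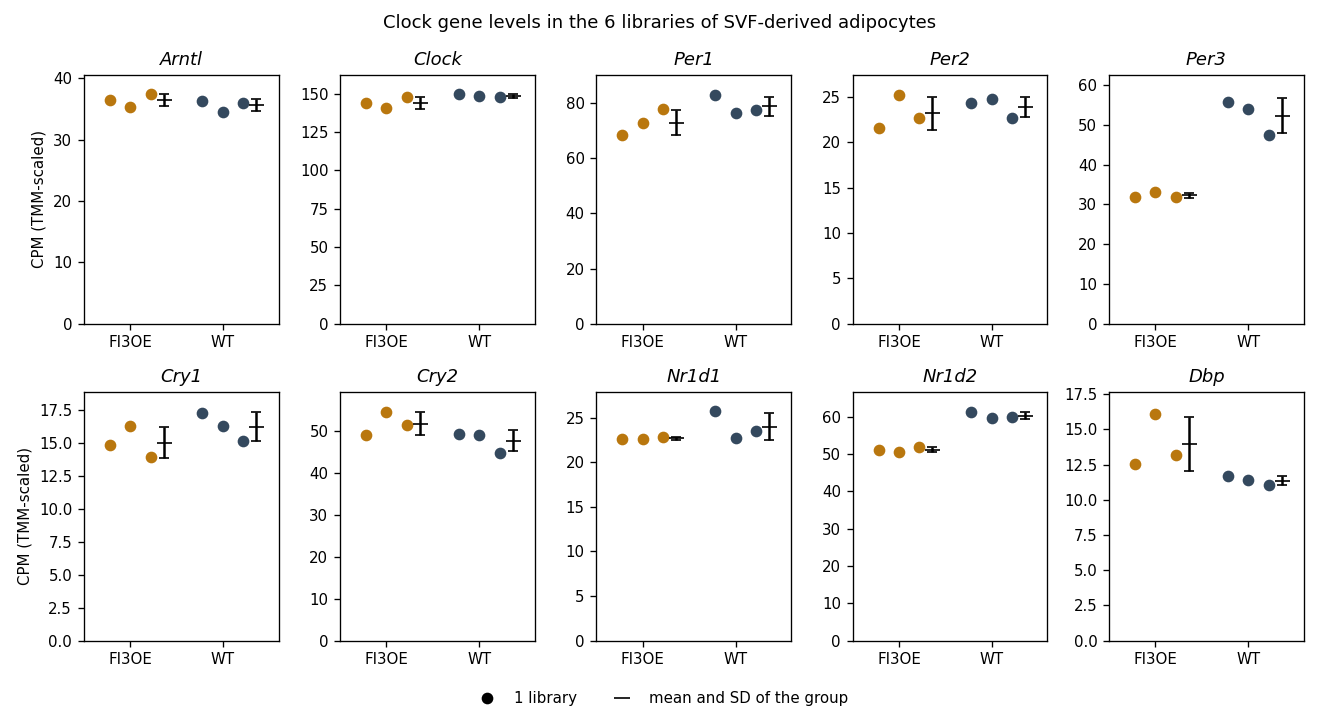
Level of each clock gene (CPM, TMM-scaled, y axis from 0) in the 3 FI3OE and 3 WT libraries of SVF-derived adipocytes, with a point for each library and a bar for the mean and SD of each group. Per3 is at 31.8 to 33.0 CPM in FI3OE against 47.3 to 55.6 CPM in WT, and the groups overlap for Arntl, Clock, Per1, Per2, Cry1, Cry2 and Nr1d1.

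Other clock genes in these cultures were called lower where they were called. Beside the lists of this paragraph, 20.2% of all genes were called higher and 16.8% lower. Npas2 was lower (log2FC -0.48, with 11.03 ± 1.10 CPM in FI3OE against 15.4 ± 1.3 CPM in WT). Of 9 output and feedback genes 2 were lower, Noct (-0.25) and the deubiquitinase gene Usp2 (-0.44). Of 16 kinases, ligases and cofactors 4 were lower, Gsk3b (-0.18), Sirt1 (-0.30), Nampt (-0.25) and Ncor1 (-0.11). The medians of the output list and of the kinase list were -0.24 and -0.04. Over all 3 lists 8 genes were called, against 3 with the transcript length offset and 1 in the fit of all 18 libraries. The share of all genes called fell alongside, from 37.0% to 23.6% and 9.09%. Of 11 glucocorticoid-responsive genes 3 were called higher and 7 lower, and of 11 immediate-early genes 7 were called higher and none lower. Summed macrophage markers were between 1907 and 1939 CPM in FI3OE and between 2009 and 2141 CPM in WT. Preadipocyte or fibroblast markers summed to between 8126 and 8460 CPM in FI3OE and between 7485 and 7787 CPM in WT. Of these markers Ly6a was called higher (means of 1383 against 388 CPM, log2FC 1.83). Col1a1 was called lower (6428 against 6805 CPM, log2FC -0.08), and the other 3 were not called. Adipocyte markers summed to between 6495 and 6795 CPM in FI3OE and between 6140 and 6269 CPM in WT. Of 10 adipocyte markers 3 were called higher and 3 lower. Of 9 macrophage markers tested 1 was called higher (C1qa) and 2 lower (Csf1r and Mrc1), with Mrc1 at means of 237 against 434 CPM. None of these 3 sums overlapped between the groups, but the genes within each list did not move together. The part of these sums in the clock gene differences was not tested.

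Set side by side, the members differed in the 2 experiments, which share no sample. Per3 had a log2FC of 0.34 in FI3KO and -0.70 in FI3OE, Nr1d2 of 0.63 and -0.24, Dbp of 1.48 and 0.30, and Arntl of -0.51 and 0.03. The FI3KO value of Per3 was not called by edgeR (adjusted p = 0.219). In TRAP replicates 1 and 2 alone the log2FC was -0.31 for Per3, 0.03 for Nr1d2, 0.51 for Dbp and -0.09 for Arntl. Dbp was called in both, with the call in FI3OE lost in 4 of 6 fits that left out a library. The difference between experiments was not tested, since tissue and culture were prepared and scaled separately.

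Compared per length, the order of the members differed between TRAP RNA of eWAT and RNA of the cultures. These also differ in fat depot, diet, use of a ribosome pull-down and other cells present, which cannot be told apart here. In WT TRAP libraries mean TPM fell from Nr1d1 (63.7 ± 4.5) through Cry2 (57.0 ± 3.8), Clock (50.0 ± 5.7), Per1 (29.1 ± 9.1), Nr1d2 (21.1 ± 2.4), Dbp (16.8 ± 2.2), Per3 (13.9 ± 6.0), Arntl (10.5 ± 0.8) and Cry1 (7.65 ± 0.84) to Per2 (5.11 ± 0.60) (SD, n = 6). Neighbours in this order overlapped, except that Clock stood above Per1, Arntl above Cry1 and Cry1 above Per2. In FI3KO the order began with Nr1d1 (116 ± 31 TPM), Cry2 (58.1 ± 7.5) and Dbp (43.9 ± 19.6), but Dbp overlapped Clock (38.9 ± 4.2). In FI3KO replicates 1 and 2 Dbp had a mean of 22.5 TPM, under the 35.6 TPM of Clock, and in replicates 3 to 6 a mean of 54.7 TPM, above the 40.5 TPM of Clock. In WT cultures Per1 led (57.0 ± 1.8 TPM), followed by Clock (34.6 ± 0.6), Cry2 (33.5 ± 1.8), Nr1d2 (28.9 ± 0.8) and Arntl (25.0 ± 1.2), and Per2 was again the lowest (9.05 ± 0.49) (SD, n = 3). The ratio of Nr1d1 to Arntl was between 0.80 and 0.90 in FI3OE and between 0.91 and 0.96 in WT cultures, against at least 5.23 in every TRAP library.

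The genes whose levels ran most closely with Dbp over the 12 TRAP libraries, as deviations of log2 CPM from the genotype mean, were Nfib, Crkl, Zfx, Rps6ka3 and Rbm47, with Pearson's r between 0.948 and 0.974 among 10911 genes. Over replicates 3 to 6 alone r was between 0.786 and 0.964. Among members, Nr1d2 (r = 0.857) and Nr1d1 (r = 0.764) came next, at ranks 56 and 265, and over replicates 3 to 6 their r with Dbp was 0.149 and -0.472. The likeness of Dbp to the REV-ERB genes was thus seen over the 12 libraries and not over the 8 libraries of replicates 3 to 6. For Arntl the closest genes were Vasp, Vgll3, Inpp5a, Nab2 and Tril, with r between 0.955 and 0.974, and between 0.957 and 0.982 over replicates 3 to 6. Arntl and Nr1d1 ran opposite to each other, with r of -0.785 over 12 libraries and -0.888 over replicates 3 to 6. Arntl and Dbp had an r of -0.309 over 12 libraries and of 0.666 over replicates 3 to 6. These values describe the libraries, which share their sets, and no p is given.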

How the data were processed

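RNA-seq tables of 12 TRAP and 6 SVF-derived adipocyte libraries were used. The authors trimmed reads with fastp, quantified them against GRCm38 transcripts with Salmon (version 1.4.0, per the labels) and deposited, for each of 118733 transcripts, estimated counts that are not normalized, TPM values and effective lengths. Libraries were made with a transposase kit that does not mark strand. Estimated counts were summed per gene with the GENCODE mouse annotation held for GRCm38 (117850 transcripts matched; the other 883, with 0.375% to 1.08% of reads, were kept as genes of their own) and rounded to whole numbers. TRAP and SVF libraries were fitted separately with edgeR 4.0.16 under R 4.3.3 (filterByExpr, TMM, quasi-likelihood test, Benjamini-Hochberg adjustment over all genes tested), and called at an adjusted p of at most 0.05. Standard errors are the log2 fold change over the root of the F statistic, and 95% intervals are 1.96 standard errors on each side, slightly narrower than the quasi-likelihood test would give. CPM are TMM-scaled within an experiment, and TPM was used to compare genes. The range of library totals is given above. Tests were two-sided, and the fits were tested on simulated counts.

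The members, the lists and the replicate sets were chosen with earlier results of these data known. Named genes are the 10 members, Irf3, genes of the other lists with an adjusted p of at most 0.05, and the 5 genes most like Dbp and the 5 most like Arntl among genes whose mean log2 CPM reached 1. Some genes of the lists enter the counts but are not reported here. Lep was named for its level, and Thra and Sphk2 for their overlap with members, after their values were seen. Alternatives were DESeq2 size factors, the DESeq2 1.42.0 Wald test, other filters (none, or at least 10 reads in every library), a transcript length offset, robust dispersion, one fit for the 18 libraries together, leaving out genes of the mitochondrial genome and rRNA, a block for replicate number, the replicate sets as a term or one at a time, 3 pairs of libraries summed (added after seeing the data), and each library left out. Promoter motifs were searched in Python 3.11.15.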

Additional observations from a re-analysis of the deposited data

Results flagged for a closer look

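For 5 members the interaction of genotype and replicate set (TRAP replicates 3 to 6 against 1 and 2) was called by edgeR, in sets noticed in these libraries. For that reason the calls and p-values describe these libraries only and do not show that the genotype difference varies between sets. The difference of the log2 fold changes was 1.13 for Per3, 0.88 for Nr1d1, 0.88 for Nr1d2, 1.35 for Dbp and -0.44 for Cry1. Over 14 alternatives of that fit the adjusted p ran from 0.000164 to 0.00258 for Per3, from 0.000318 to 0.00293 for Nr1d1, from 0.000135 to 0.00175 for Nr1d2, from 0.000325 to 0.0152 for Dbp and from 0.0267 to 0.161 for Cry1. Among 20 groups of 6 TRAP libraries, 2 for each member, no single library stood apart from the rest of its group by Dixon's criterion (a gap over 0.625 of the range). The criterion looks for 1 library and misses 2 that stand apart together, such as WT replicates 1 and 2 for Per3 (50.9 and 52.6 CPM against 23.0 to 26.3 CPM).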

How the results depend on the processing

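Of 25 alternatives to the fit of FI3KO against WT, the count of 5 called members became 8 when only replicates 3 to 6 were fitted and 0 when only replicates 1 and 2 were. With the replicate set as a term over all 12 libraries it was 7 (39.9% of all genes), with Per1 and Cry1 added. Members past both cutoffs, 1 in the main result, numbered 2 and 0 in these fits, and the other clock pathway genes, 14 in the main result, numbered 0 in replicates 1 and 2 alone, 7 with the length offset and 9 with the replicate number as a block. For FI3OE the fit of all 18 libraries called 0 members and 1 other clock gene, against 3 and 8 (9.09% of all genes against 37.0%), and the length offset called 3 other clock genes (23.6%). With 1 library left out, called members ranged from 5 to 6 and those past both cutoffs from 1 to 2 in TRAP (2 without FI3KO replicate 1, with Nr1d1 added), from 2 to 4 and from 0 to 0 in the cultures, and from 4 to 6 for the interaction, while the share of all genes called ran from 28.7% to 38.8%, from 30.2% to 31.8% and from 14.8% to 28.2%. Other clock genes ranged from 10 to 15 and from 7 to 9. Signs turned for Per2 (0.057 in replicates 3 to 6), for Per3, Cry1 and Cry2 (-0.31, 0.048 and -0.040 in replicates 1 and 2), for Per2 in FI3OE (between -0.11 and 0.0038 with 1 library left out, above 0 without FI3OE replicate 1), and, for the interaction, for Clock (-0.014 with at least 10 reads in every library; between -0.082 and 0.13 with 1 library left out, below 0 without FI3KO replicate 1 or WT replicate 5) and Per1 (between -0.32 and 0.051, above 0 without FI3KO replicate 2). None of these was past the threshold. The cause was not tested. Over all alternatives, 495 values of single genes kept their direction and side of the threshold, 13 came past it, 23 lost it and 9 turned sign.

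The replicate numbers did not pair the samples: correlations of same-numbered samples ran from -0.29 to 0.10 in TRAP and from -0.05 to 0.02 in the cultures, and 0 of 6 and 1 of 3 correlated best with their own number. With the replicate block 5 TRAP members (26.7% of all genes) and 3 culture members (35.1% of all genes) were called, 1 and 0 past both cutoffs, and 9 and 8 other clock genes. The sum of WT replicates 1 and 2 alone was planned only for the case that they agreed within sampling noise, which they did not, and was not run. With 3 pairs summed instead (WT 1 and 2, FI3KO 3 and 4, FI3KO 5 and 6, chosen after seeing the data; WT 4 and 6 stayed separate) 4 members were called (27.9% of all genes, against 37.4% in the main result). At this depth Npas2 and Timeless were counted at under 3 CPM in TRAP, which limits their precision.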
